A study of Mus musculus with 2 samples.

Results

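Bone morphogenetic proteins (BMPs) are secreted ligands of the TGF-beta superfamily, and the genes described here are 10 members of their pathway in mouse. They are the ligand genes Bmp2, Bmp4 and Bmp6, the type II receptor gene Bmpr2, the target genes Id1, Id2, Id3 and Id4, and the inhibitory SMAD genes Smad6 and Smad7. They were selected on the log2 differences of this very comparison, in which Id1 and Bmp genes were lower, so these differences are given as a description and were not tested. By gene name they lie on 11 of the 39429 probes of the array. A probe well above background was found for 8 of the 10 genes, among 15419 genes measured in all, and Id4 and Smad6 were not well above background on either array.

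The study asked how knockdown of G0s2, which encodes an inhibitor of adipose triglyceride lipase, affects gene expression in mouse primary hepatocytes, the parenchymal cells of liver kept in culture. One group was transfected with 50 pmol of G0s2 siRNA and the other with 50 pmol of control siRNA, both with a lipid reagent in medium with 10% serum, and RNA was taken after 24 hours. Each group has 1 Cy3-labelled array, so no value has a replicate check, every difference compares 2 arrays rather than 2 conditions, and no p-value is given. No source used here gives the strain, sex or age of the animals or the siRNA sequences.

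Levels below are log2 signals relative to the 75th percentile of the same array, and a difference is the level with G0s2 siRNA less that with control siRNA. The signal at that percentile was 728 on the G0s2 siRNA array and 418 on the control siRNA array, so a gene of equal unscaled signal has a negative difference. Both arrays shared 1 slide and 1 scan, and since each position held 1 group, position and siRNA cannot be told apart. G0s2 itself had a level of -2.83 with G0s2 siRNA and -0.13 with control siRNA, 6.50-fold lower. The hepatocyte label was checked against 9 marker genes, and all 9 were well above background on both arrays, among them the apolipoprotein gene Apoa1 at a level of 6.35 with G0s2 siRNA and 5.71 with control siRNA. The errors given are the scanner's own, and probes printed in up to 10 spots varied between spots by a median SD of 0.05 on the log2 scale on each array.

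BMP ligands bind pairs of type I and type II receptor kinases, which phosphorylate SMAD1, SMAD5 and SMAD9. These join SMAD4 and enter the nucleus, where ID genes and the inhibitory SMAD genes are among the best known direct targets. ID proteins lack a DNA-binding region and sequester basic helix-loop-helix transcription factors, while SMAD6 and SMAD7 damp the signal that induced them. In liver, BMP2 and BMP6 made by sinusoidal endothelial cells act on hepatocytes to induce hepcidin, the hormone that limits iron entry into blood.

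The DNA upstream of these genes is shown for 2 ligands and 2 ID genes whose differences were unequal in size, since their promoters are where SMAD complexes would be looked for. RefSeq promoter sequence of build GRCm38.p6 matched 7 of the 10 members by symbol. Id1, Bmp2 and Smad7 had no entry, so their promoters were not searched. The 250 bases before the gene start are printed 5′ to 3′ on the gene's strand. Capitals mark GGCGCC, the GC-rich core of the BMP response element, or its variant GGAGCC, on either strand. The Bmp6 and Id3 windows lie on the plus strand at chr13:38345466-38345715 and chr4:136143572-136143821, and the Bmp4 and Id2 windows on the minus strand at chr14:46390670-46390919 and chr12:25096093-25096342.
Bmp6: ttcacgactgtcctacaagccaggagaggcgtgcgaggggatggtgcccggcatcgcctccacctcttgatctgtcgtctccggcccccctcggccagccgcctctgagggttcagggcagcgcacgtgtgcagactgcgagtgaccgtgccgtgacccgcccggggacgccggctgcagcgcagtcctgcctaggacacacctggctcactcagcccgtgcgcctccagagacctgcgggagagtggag
Bmp4: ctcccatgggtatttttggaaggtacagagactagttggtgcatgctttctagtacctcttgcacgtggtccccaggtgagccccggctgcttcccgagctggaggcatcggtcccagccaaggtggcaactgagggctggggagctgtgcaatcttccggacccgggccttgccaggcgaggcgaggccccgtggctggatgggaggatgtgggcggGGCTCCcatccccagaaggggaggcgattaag
Id3: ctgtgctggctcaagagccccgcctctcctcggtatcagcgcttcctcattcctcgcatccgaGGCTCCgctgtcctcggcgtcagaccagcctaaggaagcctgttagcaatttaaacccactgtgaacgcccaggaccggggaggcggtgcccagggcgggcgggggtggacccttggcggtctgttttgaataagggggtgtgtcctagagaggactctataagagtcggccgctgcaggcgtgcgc
Id2: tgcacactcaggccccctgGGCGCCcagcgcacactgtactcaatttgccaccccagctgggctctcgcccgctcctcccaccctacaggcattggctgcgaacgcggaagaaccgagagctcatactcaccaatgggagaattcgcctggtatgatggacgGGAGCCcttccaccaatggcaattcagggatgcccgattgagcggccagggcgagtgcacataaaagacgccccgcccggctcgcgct
Id2 held 1 GGCGCC, from base -231 to base -226 before the start, and 1 GGAGCC from -88 to -83. Id3 held 1 GGAGCC on the opposite strand from -187 to -182, Bmp4 held 1 on the opposite strand from -32 to -27, and Bmp6 held neither. Among 32851 promoters of this length in the table, 9.59% held GGCGCC and 26.0% held GGAGCC. The SMAD box GTCT, present in 82.9% of all promoters, was found 3 times for Bmp6, 2 times for Id3 and 1 time each for Bmp4 and Id2. The palindrome GTCTAGAC and a composite of GGCGCC followed by GTCT after a spacer of 5 bases, held by 0.167% and 0.0700% of promoters on either strand, had no match in the 7 windows. GTCTAGAC contains the SMAD box and the composite contains both GGCGCC and GTCT, and a match is a run of letters, not a measured binding site.

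Of the 8 members measured, 3 were at least 2-fold lower with G0s2 siRNA, namely Id1, Bmp6 and Bmp4, and 0 were at least 2-fold higher. Over all 15419 genes 5.46% were at least 2-fold lower and 4.81% at least 2-fold higher. A difference of 4-fold or more on the lower side was found for 0.707% of genes, Id1 and Bmp6 among them. Higher genes made up 46.8% of those past 2-fold, and 99.7% when the arrays were centred on spike-in controls. Since the genes were picked for being lower, nothing can be read from that count. The median difference was -0.70 over the 8 members and -0.03 over all genes. The 8 divided into 5 negative and 3 positive differences, with Bmp2, Bmpr2 and Smad7 on the positive side.

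**Figure D1:**
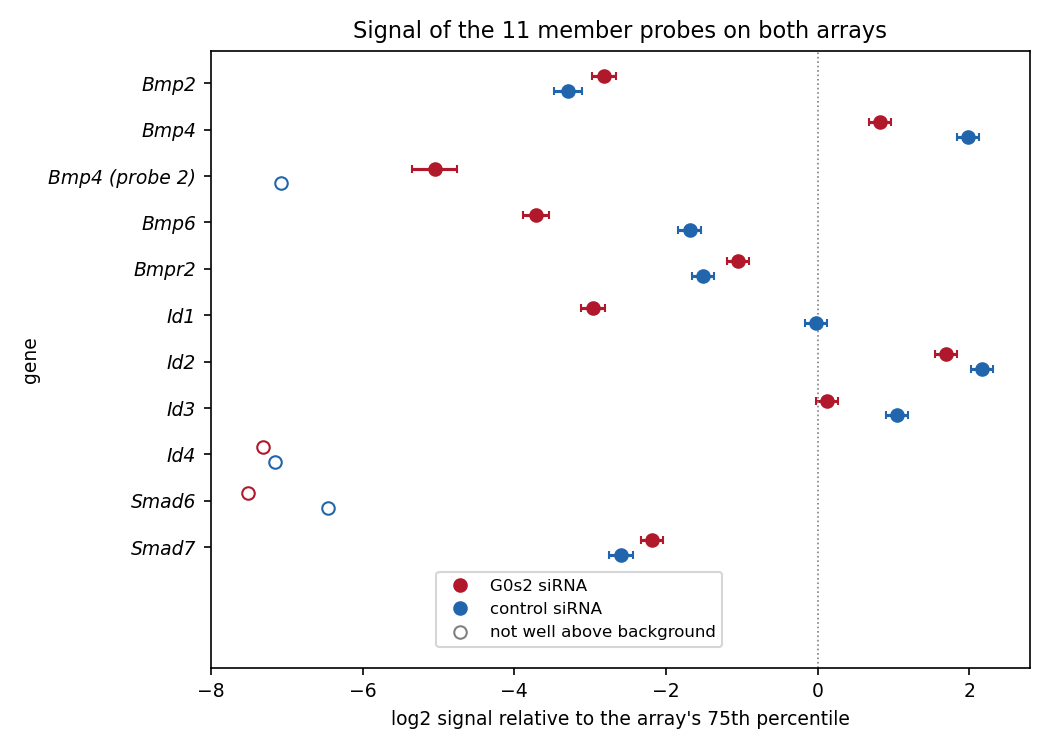
Level of each of the 11 member probes, as log2 signal relative to the array's 75th percentile (x axis), with G0s2 siRNA in red above control siRNA in blue. Bars are the scanner's signal error and open circles are signals not well above background. Id1 has a difference of -2.94 and Bmp6 of -2.02, whereas within each of Bmp2, Bmpr2, Id2 and Smad7 the points of the arrays lie within 0.50 of each other.

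Among the ligands, Bmp6 and Bmp4 were lower, Bmp4 not so under spike-in centring, and Bmp2 had no settled direction. Bmp6, the ligand best known for setting hepcidin output, had a processed signal of 55.7 with G0s2 siRNA, against 130 with control siRNA. Its level was -3.71 with G0s2 siRNA and -1.69 with control siRNA, a difference of -2.02 ± 0.23, or 4.06-fold lower. Under normexp, another background correction, the difference of Bmp6 was -1.27, which is past 2-fold but not 4-fold. The probe, A_52_P413646 for NM_007556, lies on chromosome 13 from 38591479 to 38591538 of mm9. Both signals were well above background, although the spot on the G0s2 siRNA array, at a mean brightness of 147, stood over a local background of 63.0. Of the 15419 genes, 0.687% had a lower difference than Bmp6.

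Bmp4, a ligand with roles in development and fat cell commitment, had 2 probes, of which 1 was well above background on both arrays. The brighter, A_55_P2154387, had signals of 1286 with G0s2 siRNA and 1652 with control siRNA, a difference of -1.16 ± 0.20, or 2.23-fold lower. The dimmer probe, A_55_P1959022, had 21.9 with G0s2 siRNA and was not well above background with control siRNA, at 3.11. It gave neither a fold nor a direction, because its G0s2 siRNA level of -5.05 was below the lowest level called well above background on the control siRNA array, -4.87. Both probes match NM_007554 on the minus strand of chromosome 14 of mm9, the brighter from 47003391 to 47003450 and the dimmer from 47003198 to 47003257, starting at positions 1738 and 1931 of the transcript. The call on Bmp4 therefore rests on the brighter spot of each array.

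Bmp2, the ligand closest in sequence to Bmp4, had signals of 103 with G0s2 siRNA and 42.7 with control siRNA. After scaling its difference was 0.47 ± 0.24, so 1.39-fold higher and under the 2-fold rule. Under normexp it was -0.03, so no direction can be given for Bmp2. A shift of array scale moves all genes alike and leaves the gap between 2 genes' differences as it is. The difference of Bmp6 minus that of Bmp2 was -2.49 ± 0.33, and that of Bmp4 minus Bmp2 was -1.63 ± 0.31. Over 10 other processings the first gap ran from -2.49 to -1.24 and the second from -1.63 to -1.05. Of these processings, median and spike-in centring, kept flagged spots and the filters on dim probes could not change either gap, and averaging over probes could change only the second. The end at -1.05 came from that averaging, in which the dimmer Bmp4 probe gave no fold and counted as 0. In whole cultures, fewer cells of one type and less RNA per cell cannot be told apart.

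The cell types that make these ligands were followed by their own markers. Of 10 endothelial marker genes 9 were measured, with a median difference of 0.46, 1 at least 2-fold higher (Cdh5 at 1.01) and 0 lower. Under normexp the median was 0.00, which is the value set for Vwf. Vwf was well above background with G0s2 siRNA only, gave no fold and entered the medians as 0. The summed signal of the endothelial markers was 8.17 times the 75th percentile signal with G0s2 siRNA and 10.2 times with control siRNA. Kdr led that sum, so median and sum differ in sign. The brighter probe of Kdr, a gene singled out after its values were seen, differed by -0.51 and the dimmer by 1.27. Tek was not well above background on either array. Of 8 stellate cell markers 4 were measured, with a median of 0.15, none past 2-fold, and Lrat, Des, Pdgfrb and Reln not well above background on either array. Of the 4, 3 were measured on both arrays. Ngfr was well above background with G0s2 siRNA only, gave no fold and entered the median as 0. The summed signal of the stellate cell markers was 0.472 with G0s2 siRNA and 0.378 with control siRNA. Of 8 macrophage markers all were measured, with a median of 0.25, 5 positive and 3 negative differences, and 1 gene at least 2-fold lower, Mpeg1 at -1.18. Their summed signal was 8.61 with G0s2 siRNA and 12.7 with control siRNA. Mpeg1 led that sum, and median and sum again differ in sign. The brighter probe of Mpeg1 had levels of 1.67 with G0s2 siRNA and 2.85 with control siRNA, and the dimmer differed by -1.91. Of the 9 endothelial markers measured, 6 had positive differences, against 6939 of all 15419 genes. Under normexp Pecam1 and Lyve1 turned to -0.12 and -0.11. Cdh5, Flt1, Stab1 and Clec4g stayed positive at 0.13, 0.47, 0.16 and 0.22, so Cdh5 was no longer past 2-fold. The part of these markers in the ligand values was not tested.

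Bmpr2, the type II receptor used by all 3 ligands, was not lower. Its signals were 352 with G0s2 siRNA and 147 with control siRNA, a difference of 0.46 ± 0.21, or 1.38-fold higher, and 0.20 under normexp. Its probe, A_51_P419389 for NM_007561, lies on chromosome 1 from 59927276 to 59927335. The other receptors showed no difference past 2-fold. Of 7 on the array 6 were measured, with a median of -0.06 and a range of -0.43 to 0.01. The type I receptor gene Bmpr1a differed by -0.41 ± 0.21 and Acvr1 by -0.43 ± 0.20, although a dimmer probe of Acvr1 gave 0.54. Acvr2b, a further type II receptor gene, differed by -0.07 and the co-receptor gene Eng by -0.05.

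By their brightest probes, the SMAD genes that carry the signal differed little. Smad1 had a difference of -0.20 ± 0.21, Smad5 -0.13 ± 0.20 and the shared partner Smad4 -0.19 ± 0.20, each no larger than its own scanner error, and Smad9 was not well above background on either array. Their other probes gave 0.35 for Smad1, 0.89 ± 0.20 for Smad4 and -0.32 for Smad5. No member of this group reached 2-fold in either direction, and the direction of Smad1 and Smad4 depends on the probe.

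The 3 measured ID genes were all lower and unequally so, although centring on spike-in controls turned Id2 and Id3 positive. Id1 had a processed signal of 93.5 ± 10.1 with G0s2 siRNA, against 414 ± 41.5 with control siRNA, where the error is the scanner's. In levels this was -2.96 with G0s2 siRNA and -0.02 with control siRNA, a difference of -2.94 ± 0.21, or 7.69-fold lower. The difference was 13.8 times its scanner error. Id1 had the rank 16 from the lowest difference of 15419 genes, and the knockdown target G0s2 the rank 29. Under normexp the difference was -2.22 for Id1 and -2.36 for G0s2, so the order of the pair was reversed. Its signal was also the lower one before any scaling, on the brighter of the arrays. The single probe, A_55_P2052563 for NM_010495, lies on the plus strand of chromosome 2 from 152563083 to 152563142 of mm9, starting at position 847 of the transcript.

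Id3 had signals of 791 with G0s2 siRNA and 866 with control siRNA, a difference of -0.93 ± 0.20, or 1.90-fold lower, just under the 2-fold rule. Its probe A_51_P380178 for NM_008321 starts at position 338 of the transcript and its 60 bases are placed across 175 bases of chromosome 4, from 135700075 to 135700249, so the placement has a gap. Id2 had signals of 2352 with G0s2 siRNA and 1871 with control siRNA, and a difference of -0.47 ± 0.20, or 1.38-fold lower. Before scaling, Id2 was the brighter on the G0s2 siRNA array and Id3 and Id1 the dimmer. Id4 was not well above background, at 4.57 with G0s2 siRNA and 2.93 with control siRNA, so no fold is given. The probes of Id2 and Id4, A_52_P240542 and A_52_P449871, lie on chromosome 12 from 25778904 to 25778963 and on chromosome 13 from 48358668 to 48358727.

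A shift of array scale leaves the gaps between the ID genes as they are. The difference of Id1 minus that of Id2 was -2.48 ± 0.30, that of Id1 minus Id3 was -2.01 ± 0.30, and that of Id3 minus Id2 was -0.46 ± 0.29. Over the 10 other processings Id1 minus Id2 ran from -2.58 to -1.72 and Id1 minus Id3 from -2.10 to -1.27, each smallest in size under normexp. Of these processings, median and spike-in centring, kept flagged spots, the filters on dim probes and averaging over probes could not change the gaps. Such gaps describe unequal differences between 2 arrays, and do not mean that any ID gene stayed the same.

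**Figure D2:**
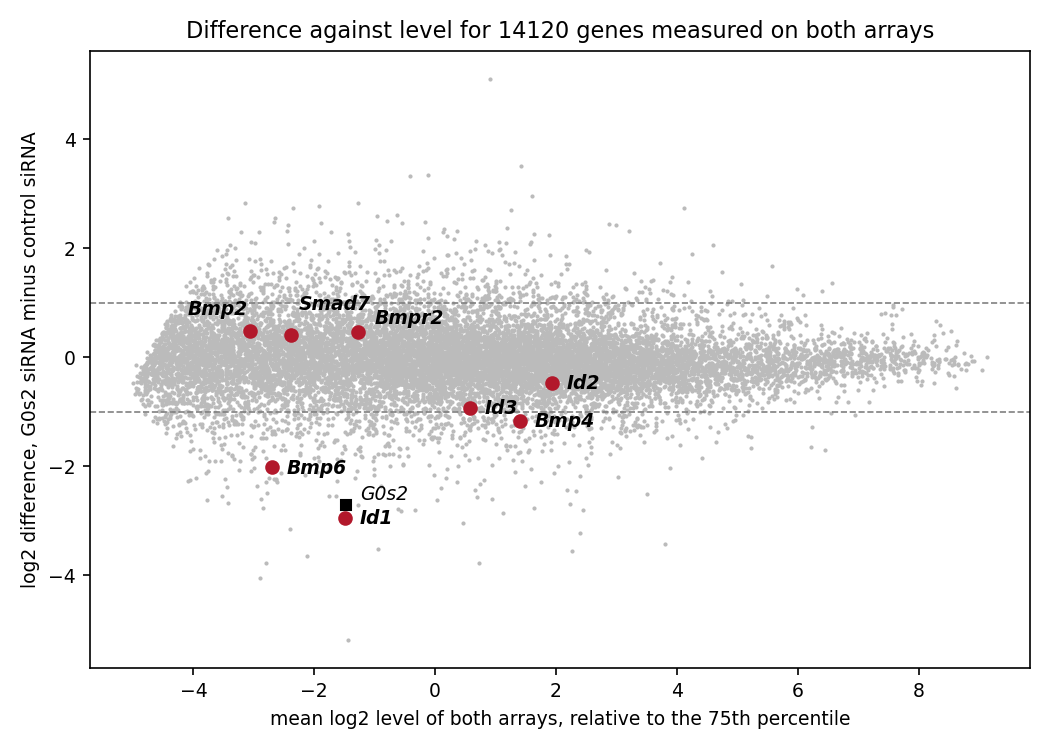
Log2 difference, G0s2 siRNA minus control siRNA (y axis), against the mean log2 level on both arrays relative to the 75th percentile (x axis), for 14120 genes measured on both arrays, where grey points are genes, red points the 8 measured members, the black square G0s2, and dashed lines 2-fold. Id1 at -2.94, beside G0s2 at -2.70, and Bmp6 at -2.02 lie well below the lower line, Bmp4 at -1.16 just past it, and the other members between the lines.

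The spread of differences widens for dim genes, and the members sit at different points of it. Genes measured on both arrays were divided by level into 5 bins of 2824. In bin 2 from the lowest, which holds Id1, Bmpr2 and Smad7, the SD of differences was 0.69 and 6.13% were at least 2-fold lower. In bin 1, which holds Bmp6 and Bmp2, the SD was 0.68 and 6.76% were at least 2-fold lower, and in bin 4, which holds Bmp4 and Id2, the SD was 0.57 and 4.18% were. Across 10 bins of the probe's position in its transcript, the median difference was -0.16 in the bin nearest the start, which holds Id3, -0.11 in that of Id1 and Id2, -0.07 in that of Bmp4 and 0.02 in those of Bmpr2 and Smad7. Within these position bins the SD of differences was 0.53 to 0.66, and the part of probe position in the members' values was not tested.

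Of the 2 inhibitory SMAD genes, themselves BMP targets, 1 was measured. Smad7 had signals of 160 with G0s2 siRNA and 69.0 with control siRNA, a difference of 0.42 ± 0.22, or 1.33-fold higher, and 0.14 under normexp. It lies on chromosome 18 and was measured by A_51_P403636 for NM_001042660. Smad6 was at background on both arrays, with 3.98 for G0s2 siRNA and 4.78 for control siRNA. Its probe is A_55_P2129658 for NM_008542 on chromosome 9. The other targets listed are transcription factor genes, and 3 of 5 were measured. Msx2, a homeobox gene, differed by -1.38 ± 0.20, Atoh8, a basic helix-loop-helix gene, was at least 2.51-fold lower and not well above background with G0s2 siRNA, and Msx1 differed by -0.45 ± 0.27. Dlx5 and Hey1 were not well above background on either array. Atoh8 differed by -0.77 under normexp, and Msx2 by -1.37.

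The iron-sensing arm of the pathway, the main known use of BMP signalling in hepatocytes, was measured in full, with 9 of 9 genes and a median of 0.17. Hamp, which encodes hepcidin, had a level of -0.96 with G0s2 siRNA and 0.04 with control siRNA, so just past the 2-fold rule, and its difference was -0.79 under normexp. Mouse has a near copy, Hamp2, whose own probe differed by 0.34 ± 0.30, and by -0.34 under normexp, so it has no settled direction. Cross-hybridisation between the copies was not tested. Hjv, the hemojuvelin co-receptor gene that the files list as Hfe2, was 2.30-fold higher at 1.20 ± 0.21, and under the rule at 0.95 under normexp. Tmprss6, the protease that cleaves hemojuvelin, differed by -0.57 ± 0.20, Tfr2, the transferrin receptor that senses iron, by 0.17 ± 0.20, and the hemojuvelin relative Rgmb by 0.48 ± 0.21.

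Among other ligands and antagonists, 3 genes were at least 2-fold lower and 0 higher, against 5.46% and 4.81% of all genes. Of 11 other ligand genes 6 were measured, with a median of -0.42. Gdf5 was at least 2.65-fold lower and not well above background with G0s2 siRNA, Bmp7 differed by -0.97 ± 0.36, Bmp8b by -0.84 ± 0.20 and Gdf2, which encodes BMP9, by 0.96 ± 0.36. Under normexp Gdf2 was at -0.07, so it has no settled direction, and Gdf5 was at -0.79, under the 2-fold rule. Of 11 secreted antagonists 7 were measured, with a median of -0.09 and 2 at least 2-fold lower. Fst, which encodes the activin and BMP binder follistatin, differed by -1.09 ± 0.20, Chrdl1 was at least 4.11-fold lower with its only bright signal on the control siRNA array, Twsg1 differed by -0.74 ± 0.20 and Nog, or noggin, by -0.09. Under normexp Fst was at -0.89, under the rule, and Chrdl1 at -1.20. The other 2 probes of Chrdl1 were not well above background on either array. Gdf7 and Bmper were well above background with G0s2 siRNA only, gave no fold and entered the medians as 0.

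Among 7 genes that damp the signal inside the cell or at its surface, 6 were measured, with a median of 0.33. Smurf2, a ubiquitin ligase that marks SMADs and their receptors for degradation, was 2.77-fold higher at 1.47 ± 0.21, and its other probes gave 2.28 and 1.49. All 3 probes of Smurf2 were thus at least 2-fold higher. Its relative Smurf1 differed by -0.41 ± 0.20, the phosphatase gene Ppm1a by 0.75 ± 0.20 and the corepressor gene Ski by 0.38 ± 0.39. Bambi, a decoy receptor gene, was not well above background on either array. Over all 54 other BMP pathway genes, 40 were measured, with a median of -0.08. Of these, 6 were at least 2-fold lower and 2 at least 2-fold higher, against 5.46% and 4.81% of all genes. Among the 6 lower, Gdf5, Chrdl1 and Atoh8 are bounds. Under normexp 2 were at least 2-fold lower and 1 at least 2-fold higher, and Ski turned to -0.60.

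**Figure D3:**
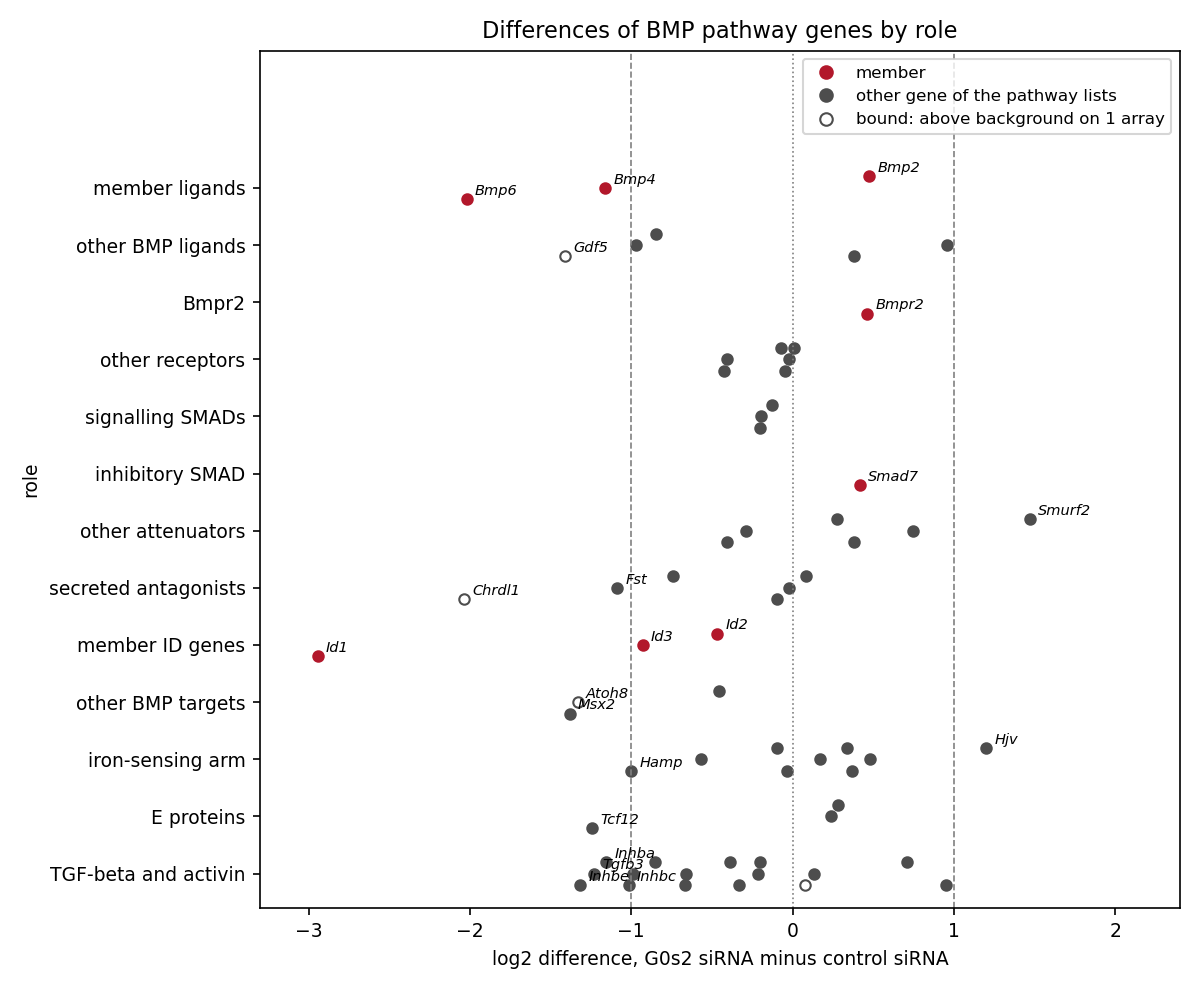
Log2 difference, G0s2 siRNA minus control siRNA (x axis), of measured BMP pathway genes by role (rows, points spread vertically for legibility), with members in red, other genes in dark grey, open circles for bounds, dashed lines at 2-fold and names on members and on genes past the lines. Id1 at -2.94 lies lowest, Smurf2 at 1.47 and Hjv at 1.20 highest, and the receptors and signalling SMADs lie within 0.50 of 0. Each gene is shown by its brightest probe only.

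ID proteins act by binding the E proteins, encoded by Tcf3, Tcf4 and Tcf12. Tcf3 differed by 0.24 ± 0.21 and Tcf4 by 0.28 ± 0.21. Tcf12 differed by -1.25 ± 0.21 with its brighter probe and by -0.38 with the other, so its size depends on the probe. In the related TGF-beta and activin arm all 16 genes were measured, with a median of -0.52. Against 5.46% and 4.81% of all genes, 4 were at least 2-fold lower and 0 at least 2-fold higher. Those 4 were Inhbe at -1.32, Tgfb3 at -1.23, Inhba at -1.16 and Inhbc at -1.02, all ligand genes. Under normexp 1 was lower and 1 higher. Of 7 cholangiocyte markers 5 were measured, all with negative differences and a median of -0.94, among them Cldn7 at -1.29 and Krt19 at -1.13. Their summed signal was 4.31 with G0s2 siRNA and 7.72 with control siRNA, Epcam and Cftr were not well above background on either array, and their part in the values of the ID genes was not tested. Hepatocyte markers had a median of 0.30, with Hnf4a at 1.04, and a summed signal of 2099 with G0s2 siRNA and 1809 with control siRNA.

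Directions depend on what the arrays are centred on. Centred on spike-in controls, the median of all genes was 1.52, with 85.0% of genes past 2-fold on the higher side and 0.246% on the lower. Relative to that median, Id1 differed by -2.89, Bmp6 by -1.96, Bmp4 by -1.10, Id3 by -0.87 and Id2 by -0.41, while Bmp2, Bmpr2 and Smad7 differed by 0.53, 0.52 and 0.47. Spike-in centring shifts all 8 alike, so these values equal the main differences up to 1 constant and are not a separate check. Taken as they stand the spike-in centred values were -1.37 for Id1 and -0.44 for Bmp6, but 0.42 for Bmp4, 0.65 for Id3 and 1.11 for Id2. Id1 was at least 2-fold lower in all 10 other processings and Bmp6 in 9 of 10, the exception being spike-in centring. For these genes, with 1 probe well above background on both arrays, the filters on dim probes and averaging over probes could not change the value. Keeping flagged spots and median centring hardly moved it, with Id1 at -2.94 and -2.95. Bmp4 was at least 2-fold lower in 8 of 10, the exceptions being spike-in centring and the mean over its probes, which gave -0.58. In that mean the dimmer Bmp4 probe, which gave no fold, counted as 0, so the value is not a second measurement. The centring used 8 spike-in probes, whose own differences had a median of -0.74 and ran from -0.98 to -0.08. No source used here says whether equal amounts of spike-in were added.

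**Figure D4:**
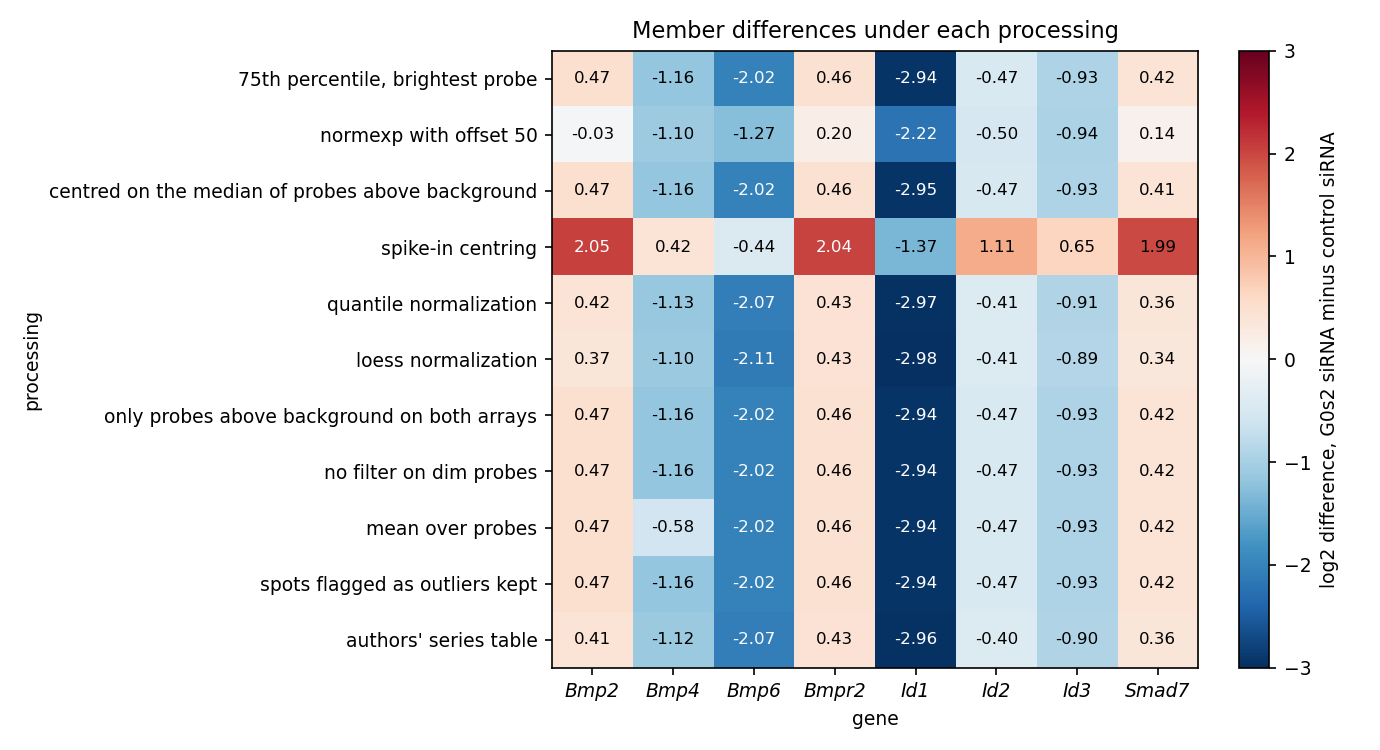
Log2 difference, G0s2 siRNA minus control siRNA, of the 8 measured members (columns) under the processing used in the text (top row) and 10 others (rows), with blue for lower and red for higher. Id1 runs from -2.98 to -1.37 and is negative in every row, while the row of spike-in centring is shifted upward for all 8 genes.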

How the data were processed

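RNA from mouse primary hepatocytes was measured on 2 arrays of 1 colour, 1 per siRNA group, from 0.5 ug of RNA per the labels' protocols. The authors deposited linear spot intensity tables read with Agilent Feature Extraction 10.7.1.1, per the file headers, in which the processed signal is already background-subtracted and detrended. The authors' series table also holds linear intensity values, whose normalization no source used here states, with equal medians of 33.1 on both arrays. It entered as an alternative, and its scale and centring were read from the values.

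Outlier-flagged and control spots were dropped (5 probes lost, none of a member), and no spot was saturated. Spots of a probe were averaged on the log2 scale, and each array's 75th percentile was subtracted. Each gene is represented by the brightest of its probes that either array shows well above background. If only 1 array does, the dim value was set to the lowest level well above background there, and the fold is written as at least N-fold. A bound of the wrong sign gave no fold and counted as 0. Of the probes, 26408 were named by accession through a RefSeq table of GRCm38.p6, 3854 by symbol and 734 by synonym. Probe coordinates are those of the files, on mm9. Exon and UTR annotation of that build was not used here.

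With 1 array per group no test was made, and the number of arrays limits the precision. The error is the scanner's signal error propagated to the log2 difference. The rule for a called gene was a difference of at least 1 on the log2 scale. Named genes were all members with every probe, G0s2, 12 core pathway genes, and from each other list up to 4 genes with the largest difference and those past 2-fold, of which a selection is given. The members and lists were chosen with earlier results of these data known. No genes are named for likeness to the members, since 2 arrays give each gene 1 difference. The calculation was tested on simulated data. The other settings were normexp with an offset of 50, median and spike-in centring, quantile and loess normalization, looser and stricter filters on dim probes, averaging a gene's probes, flagged spots kept, the series table, and rules of 1.5-fold and 3-fold or over 2 times the scanner error. Python 3.11.15, numpy 2.4.6, pandas 2.3.3, R 4.3.3 and limma 3.58.1 were used.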

Additional observations from a re-analysis of the deposited data

How the results depend on the processing

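No paired analysis was possible because each group has 1 array, and for the same reason no array could be left out. Spike-in centring moved every member, with 1 member at least 2-fold lower and 4 higher, a member median of 0.88, an all-gene median of 1.52 with 38 genes lower and 13107 higher, and a median of 1.47 for the other BMP pathway genes, with 0 lower and 31 higher. It turned Bmp4 to 0.42, Hamp to 0.58 and Tcf12 to 0.33, and gave G0s2 -1.12. Under normexp 518 of all genes were lower and 378 higher, 2 and 1 of the other pathway genes, and G0s2 was -2.36. Without a filter on dim probes 1455 of all genes were lower and 1523 higher, and 5 other pathway genes were higher. With probes above background on both arrays 3 other pathway genes were lower, since bounds drop out. The 1.5-fold rule gave 2245 lower and 1918 higher, with 4 other pathway genes higher, and the 3-fold rule 236 and 176, with 1 and 0 of the other pathway genes. The cause of the shifts under normexp and spike-in centring was not tested. Dim spots limit Bmp2, Bmp6, Atoh8, Gdf5 and Chrdl1, and Id4 and Smad6 were too dim to compare.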
